A study of Mus musculus with 10 samples.

Results

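Inhibitory receptors of myeloid cells and the ligands they read on other cells were read in epididymal fat, the white fat pad of male mice that lies along the epididymis. The group consisted of 6 receptor genes (Cd200r1, Sirpa, Cd300a, Cd300lf, Siglec1 and Cd84) and 2 ligand genes (Cd200 and Cd47). Every probe set that the platform annotation gives exactly 1 symbol, and that symbol one of these 8, was taken: 19 probe sets of 45101 on the array, and 8 of 18193 named genes. Cd47 had 5 probe sets, Sirpa and Siglec1 had 3 each, Cd200r1, Cd300a and Cd84 had 2 each, and Cd200 and Cd300lf had 1 each. The tissue came from male C57BL/6J mice that were 8 weeks old when the diets began. For 8 weeks 5 mice ate CRF-1 chow and 5 ate a diet with 60% fat, and each mouse gave 1 Affymetrix expression array. Whole tissue was used, so more cells of a type and more RNA per cell cannot be told apart in any value below.

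These receptors restrain phagocytes. CD200R1 on macrophages binds CD200, which endothelial cells, neurons and lymphocytes display, and recruits the adaptors DOK2 and DOK1 and the Ras regulator RASA1. SIRP-alpha, the product of Sirpa, binds CD47, which nearly all cells carry as a signal against being eaten, and recruits the phosphatases encoded by Ptpn6 and Ptpn11 through its cytoplasmic tyrosine motifs. CD300A and CD300LF read lipids on cell surfaces, including those exposed by dying cells. Siglec-1, also called CD169, binds sialic acid and lacks the inhibitory motifs of its relatives, so it is grouped here as a sialic acid receptor rather than as a proven inhibitor. CD84 belongs to the SLAM family, binds itself on neighbouring cells and signals through SAP adaptors or phosphatases. Several of these receptors have close relatives that couple to the adaptors TYROBP and FCER1G and activate the cell.

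RefSeq promoter windows were found for 5 of the 8 genes (Cd84, Cd300a, Cd300lf, Cd200 and Cd47, the first of whose listed starts is shown; build GRCm38.p6), and the last 150 bases before an annotated start are shown to set receptors beside ligands. Capitals mark CG dinucleotides, and each sequence runs 5′ to 3′ towards the start of the gene.
Cd84, chr1:171839547-171839696, plus strand: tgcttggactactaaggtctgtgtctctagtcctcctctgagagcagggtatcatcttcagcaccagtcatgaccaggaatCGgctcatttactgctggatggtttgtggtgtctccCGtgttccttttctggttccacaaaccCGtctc
Cd300a, chr11:114889891-114890040, plus strand: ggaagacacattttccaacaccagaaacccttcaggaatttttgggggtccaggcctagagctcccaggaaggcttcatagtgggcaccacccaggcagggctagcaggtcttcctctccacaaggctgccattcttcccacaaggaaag
Cd300lf, chr11:115133993-115134142, minus strand: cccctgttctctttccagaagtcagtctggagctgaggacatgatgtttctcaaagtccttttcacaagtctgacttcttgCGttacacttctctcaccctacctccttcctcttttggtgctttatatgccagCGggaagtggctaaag
Cd200, chr16:45409054-45409203, minus strand: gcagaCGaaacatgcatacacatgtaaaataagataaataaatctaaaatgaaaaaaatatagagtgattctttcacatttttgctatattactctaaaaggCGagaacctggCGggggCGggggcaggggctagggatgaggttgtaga
Cd47, chr16:49855504-49855653, plus strand: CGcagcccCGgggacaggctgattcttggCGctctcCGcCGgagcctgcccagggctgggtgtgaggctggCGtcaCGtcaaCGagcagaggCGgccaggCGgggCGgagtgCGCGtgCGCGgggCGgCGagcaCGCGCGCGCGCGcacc
In the 250 bases before the start, the Cd47 window held 30 CG dinucleotides and 73.2% G and C. Cd200 held 6, Cd300lf 4, Cd84 3 and Cd300a 1, against a median of 6 over 32851 windows, of which 37.8% held 10 or more. The ligand carried by nearly all cells had the most CG dinucleotides of the 5, and the 3 receptors had fewer than the median. A search on both strands for the PU.1 letters AGGAAGT (7.69% of all windows), the AP-1 letters TGANTCA (6.75%) and the interferon-stimulated response element (ISRE, 2.98%) found 1 match in these windows, an AP-1 match in that of Cd84 (TGAGTCA, bases -229 to -223 from the start, outside the bases shown).

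Values below are the deposited intensities or, on the log2 scale, the same intensities set to at least 0.658 (their 5th percentile) and quantile normalized. A change is high-fat minus chow in log2, with the standard error (SE) from limma and a Benjamini-Hochberg adjusted p over all 45037 probe sets tested; "passed" means an adjusted p under 0.05. For dim probe sets the change with log2(value + 16) is given too, since it is smaller there than with the floor. No detection calls were used, so the lowest readings (Siglec1, Cd300lf, and Cd200r1 on chow) may not be above background. Marker RNA of several cell types differed between the groups. Of 15 macrophage markers 14 rose (mean log2 level 6.77 to 7.76 on chow, 9.92 to 10.56 on the high-fat diet). Adipocyte markers were bright in both groups (10.68 to 12.60 and 11.89 to 12.33). Of 13 epididymis and testis genes 7 fell, and all 13 did at an unadjusted p under 0.05 in limma (median change -4.75). Their mean level was 9.58 ± 1.72 for chow against 4.96 ± 0.64 for high-fat (SD, n = 5 each). All 8 epithelial genes fell too (mean level 6.73 to 10.46 on chow, 3.85 to 4.65 on the high-fat diet). For the actin control, probes at the 5′ end gave 0.272 to 0.456 of the signal of those at the 3′ end on chow, and 0.557 to 0.643 on the high-fat diet. The part of any of these in the changes of the receptors was not tested.

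On the high-fat diet 4 of the 6 receptors rose in every probe set they have (Cd200r1, Sirpa, Cd300a and Cd84), by 27.2-fold for Cd84 and 10.8-fold for Sirpa at their brightest probe sets. Siglec1 rose in 2 of 3 dim probe sets. Cd300lf did not pass, nor did the ligand Cd200, and Cd47 rose in 1 of 5 probe sets. In all, 12 of 19 member probe sets were higher at a limma adjusted p under 0.05, where 9.89% of all probe sets were, and 0 were lower, where 8.00% were; at an unadjusted p under 0.05 the counts were also 12 and 0. The median change of the 19 was 1.81, and that of all probe sets 0.013; with log2(value + 16) the median of the 19 was 0.91 and 12 again passed. In 13 of 19 (12 of 19 in the intensities as deposited) all high-fat arrays lay above all chow arrays, as in 9.49% of all probe sets, and in 0 did they all lie below, as in 7.16%. By brightest probe set, 5 of 8 member genes were higher, against 12.1% of all genes, and 0 lower, against 11.9%; their median change was 3.09.

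**Figure D1:**
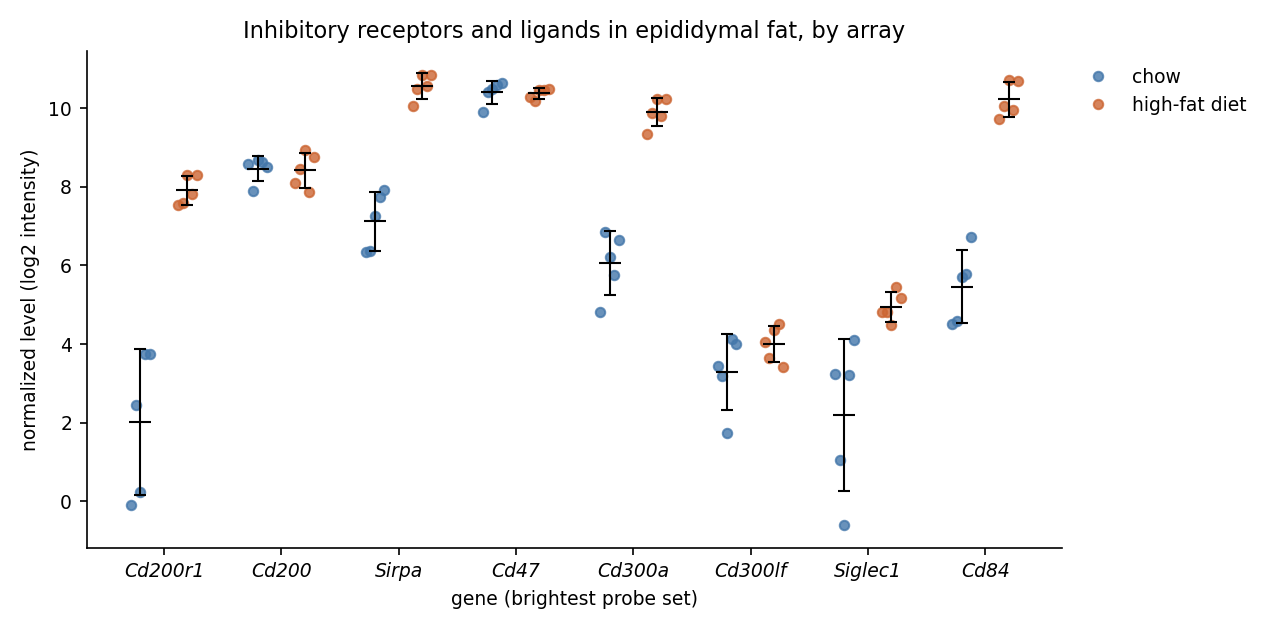
Normalized level (log2 intensity, vertical axis) of each gene's brightest probe set (horizontal axis) in 5 chow and 5 high-fat arrays; each point is 1 array, the dash is the group mean and the bar is the SD. The groups are apart for Cd200r1, Sirpa, Cd300a, Siglec1 and Cd84, and overlap for Cd200, Cd47 and Cd300lf.

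Cd200r1, the receptor of CD200, was dim and widely spread on chow, below the array medians of 17.9 to 27.4, and bright on the high-fat diet. Its brighter probe set (1422191_at) read 0.959, 6.19, 1.22, 16.1 and 12.5 in chow arrays 1 to 5. The high-fat arrays 1 to 5 read 203, 201, 417, 203 and 349. Every high-fat array lay far above every chow array, and within chow, arrays 1 and 3 were the lowest. The change was 5.88 (SE 0.73, adjusted p = 0.000266). Chow averaged 2.02 ± 1.86 and high-fat 7.91 ± 0.37 (SD, n = 5 each). With log2(value + 16) it was 3.53 (SE 0.22, adjusted p = 3e-06), so the size rests on how the low chow values are treated. The other probe set (1439703_at) ranged from 1.13 to 15.9 on chow and from 100.4 to 252 on the high-fat diet, and rose by 4.61 (SE 0.67, adjusted p = 0.000741), or by 2.69 with log2(value + 16).

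Cd200, its ligand, did not pass. Its probe set read 337, 232, 367, 424 and 285 on chow. On the high-fat diet it read 302, 371, 668, 208 and 484, so the groups overlapped and the high-fat arrays held both the lowest and the highest value. The difference was -0.04 (SE 0.22, adjusted p = 0.927), with a 95% interval from -0.53 to 0.45. The sign turned with the scaling: the difference was 0.22 without normalization and 0.36 after median centring of the arrays, and neither passed. Of 12 endothelial markers, cells that carry CD200, 0 passed in limma over all arrays (0 also at an unadjusted p under 0.05), with a mean level of 7.08 to 9.77 on chow and 8.17 to 8.72 on the high-fat diet. Chow array 2 was lowest of the chow arrays both in Cd200 (7.90) and in the endothelial mean (7.08). Other arrays did not pair in this way. Chow array 1 was next lowest in the endothelial mean (7.92) but not in Cd200 (8.57). Among the high-fat arrays Cd200 was highest in array 3 (8.94), where the endothelial mean was 8.25. Without chow arrays 1 and 2 the Cd200 difference was -0.19 (adjusted p = 0.582), while all 12 endothelial markers fell.

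Sirpa, the receptor of CD47, rose in all 3 of its probe sets. The brightest (1416985_at) read 77.3, 82.7, 139.9, 229.3 and 190.9 on chow. On the high-fat diet it read 1194, 1583, 2537, 1449 and 2119. The lowest high-fat array was well above the highest chow array, and chow arrays 1 and 2 were the lowest of all. The change was 3.44 (SE 0.32, adjusted p = 3.72e-05). The group means were 7.12 ± 0.75 and 10.56 ± 0.32 (SD, n = 5 each). Probe set 1448534_at rose by 2.64 (SE 0.24), and the dim 1416986_a_at by 3.52 (SE 0.44), or by 1.88 with log2(value + 16).

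Cd47, its ligand, gave unlike answers across probe sets. The brightest (1428187_at) ranged from 814 to 1631 on chow and from 1256 to 1937 on the high-fat diet. Its difference was -0.03 (SE 0.15, adjusted p = 0.925; 95% interval -0.35 to 0.29). Probe set 1449507_a_at read 497, 748, 578, 833 and 586 on chow, and 1424, 1479, 1941, 1244 and 1609 on the high-fat diet, with no overlap. It rose by 0.93 (SE 0.11, adjusted p = 0.000234), which is 1.90-fold. The third bright probe set (1419554_at) differed by 0.24 (SE 0.15, adjusted p = 0.320); centred on array medians it differed by 0.69 and passed (adjusted p = 0.00636). Both 1419554_at and 1449507_a_at are annotated to the same RefSeq record, and the probe positions were not used here. The dim 1430997_at and 1459908_at differed by 0.70 and 1.48 and did not pass (adjusted p = 0.205 and 0.194); with log2(value + 16) they differed by 0.30 and 0.44. The groups of 1459908_at did not overlap after normalization and did in the intensities as deposited, where chow array 4 read 11.41 and high-fat array 5 read 11.37. Chow array 2 was at the floor there. With all 5 probe sets averaged, Cd47 rose by 0.66 (adjusted p = 0.0335). A Cd47 call therefore depends on the probe set, and the part of the differing 5′ to 3′ control ratios in this was not tested.

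The receptors and ligands of both pairs changed unequally within arrays. Log2 Cd200r1 minus log2 Cd200 ran from -8.66 to -4.76 on chow and from -0.87 to -0.04 on the high-fat diet. The group means differed by 5.92 (2-sided exact permutation p = 0.00794, the smallest that 252 arrangements allow; n = 5 each; the same adjusted over 2 pairs), or by 3.56 with log2(value + 16). For Sirpa minus Cd47 the values ran from -4.06 to -2.71 on chow and from -0.22 to 0.38 on the high-fat diet. The group means differed by 3.46 (2-sided exact permutation p = 0.00794, n = 5 each, also the same adjusted), and by 2.54 with all probe sets of each gene averaged. All 5 high-fat arrays lay above all 5 chow arrays in both pairs. The level of one probe set against another has no meaning here, so only the shift between groups is read.

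**Figure D2:**
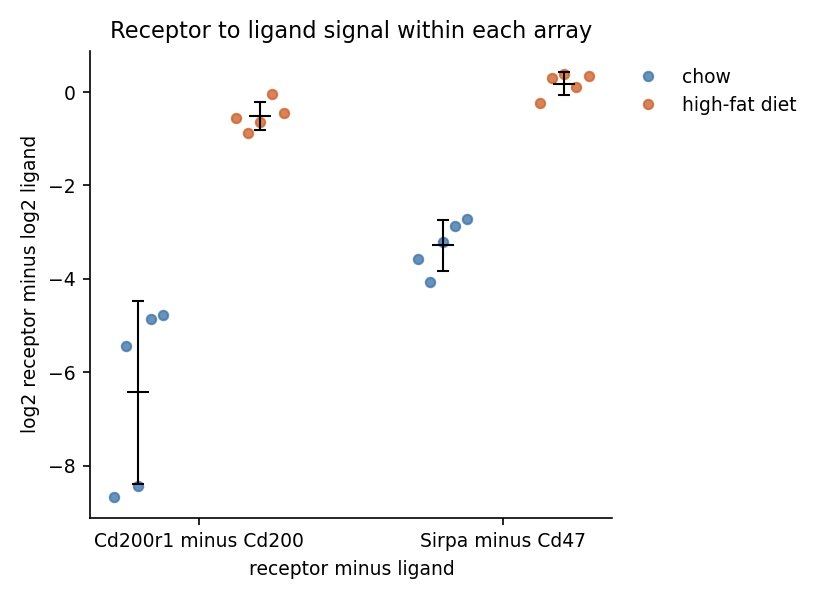
Log2 signal of the receptor minus that of its ligand within each array (vertical axis), for Cd200r1 with Cd200 and Sirpa with Cd47 (horizontal axis); points are arrays, dashes are means and bars are SD. In both pairs the 5 high-fat arrays lie above the 5 chow arrays, and the chow values of the first pair spread from -8.66 to -4.76.

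Cd300a, a receptor for lipids of dying cells, rose in both probe sets. The brighter (1435903_at) read 28.1, 114, 71.7, 63.5 and 79.0 on chow. On the high-fat diet it read 727, 1029, 1650, 835 and 1375, all above chow; the lowest value was in chow array 1 and the highest in high-fat array 3. It rose by 3.85 (SE 0.35, adjusted p = 3.23e-05), or 14.4-fold. Chow averaged 6.05 ± 0.81 and high-fat 9.90 ± 0.37 (SD, n = 5 each). The dim 1445292_at rose by 3.96 (SE 0.57), or 1.68 with log2(value + 16).

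Cd300lf, its neighbour in the family, was dim in both groups. It read 10.9, 9.86, 3.54, 21.1 and 14.7 on chow, and 15.9, 11.6, 22.8, 18.2 and 10.8 on the high-fat diet. The groups overlapped over most of their range. The difference was 0.70 (SE 0.47, adjusted p = 0.354; 95% interval -0.33 to 1.74), or 0.27 with log2(value + 16). At this brightness a rise of up to the upper bound could not be told from no change. The activating relatives Cd300lb, Cd300ld and Cd300c2 rose by 5.13, 4.04 and 4.40, so the single Cd300lf probe set stood apart from 4 other measured family members by its call; the difference between them was not tested.

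Siglec1 was dim, and its 3 probe sets did not all pass. The brightest (1427668_at) read 9.52, 2.41, 0.623, 10.98 and 15.7 on chow, the third value being under the floor, and 27.7, 26.2, 24.9, 35.6 and 36.0 on the high-fat diet. The groups did not overlap, but the chow arrays were widely spread. The change was 2.74 (SE 0.78, adjusted p = 0.0317), or 1.03 with log2(value + 16) (adjusted p = 0.00508). Without chow array 2, or without any 1 of the high-fat arrays, the adjusted p was over 0.05 (0.0517 to 0.0768). Probe set 1422161_at read 3.24 to 13.9 on chow and 13.9 to 35.0 on the high-fat diet, and rose by 1.81 (SE 0.42, adjusted p = 0.0124), or by 0.73 with log2(value + 16). The dimmest, 1427706_a_at, differed by 1.23 (0.29 with log2(value + 16)) and did not pass (adjusted p = 0.395); only high-fat arrays 2 and 4 exceeded 8 there (21.2 and 8.12).

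Cd84, the SLAM family receptor, showed the second largest change of the 8 genes. Its brighter probe set (1422875_at) read 22.7, 25.6, 53.0, 64.4 and 83.5 on chow. On the high-fat diet it read 941, 1164, 2305, 939 and 1891, so the groups were far apart, and arrays 3 and 5 were the highest. The change was 4.76 (SE 0.39, adjusted p = 1.96e-05). Chow averaged 5.46 ± 0.93 and high-fat 10.23 ± 0.44 (SD, n = 5 each). It was 4.29 with log2(value + 16), the largest of all 19 probe sets on that scale. The dim 1446505_at ranged from 5.71 to 12.3 on chow and from 16.7 to 22.3 on the high-fat diet, and rose by 1.47 (SE 0.32, adjusted p = 0.00813), or by 0.64 with log2(value + 16). Both agree in direction and differ in size.

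**Figure D3:**
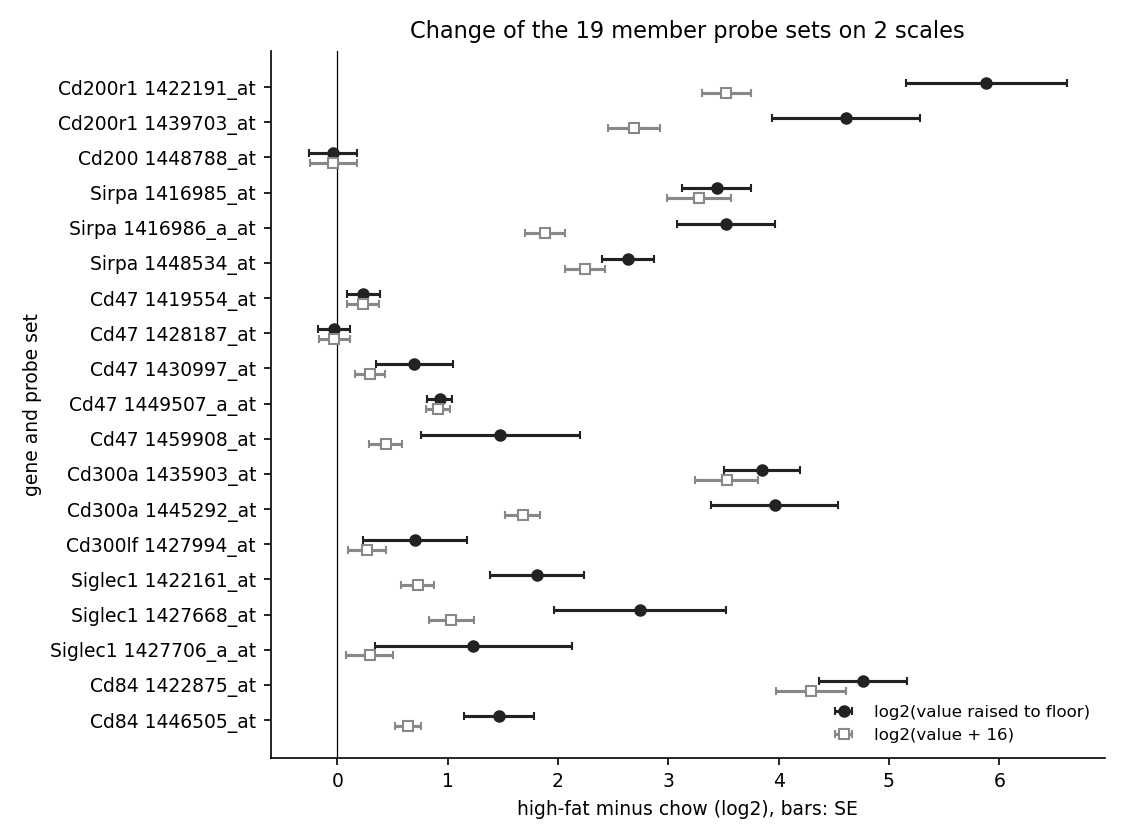
Change of each of the 19 member probe sets (high-fat minus chow, log2, horizontal axis; bars are SE) with values raised to the floor (filled) and with log2(value + 16) (open). Cd84 1422875_at, Sirpa 1416985_at and Cd300a 1435903_at move little between the scales (4.76 and 4.29 for Cd84), whereas Cd200r1 1422191_at goes from 5.88 to 3.53.

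Arrays also varied within a group. On the normalized log2 scale, of the 19 probe sets, 9 were lowest in chow array 1 among the chow arrays and 9 were highest in chow array 5. Among high-fat arrays 11 were lowest in array 1, 8 were highest in array 3 and 6 in array 5. In the intensities as deposited the order was not the same, with 11 highest in chow array 4 and 14 in high-fat array 3. The macrophage marker mean had its lowest and highest chow values in the same arrays 1 and 5 (6.77 and 7.76), and its lowest and highest high-fat values in arrays 1 and 5 (9.92 and 10.56).

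Set against the macrophage marker mean of the same array, the members split. Cd84 rose by 1.71 more than that mean and Cd200r1 by 2.83 more, with no overlap between groups (1.505 and 0.74 with log2(value + 16), also with no overlap). Sirpa and Cd300a shifted by 0.39 and 0.80, with overlapping groups (0.49 and 0.74 with log2(value + 16), also with overlap). Cd200r1 and Cd300a thus shifted alike on the log2(value + 16) scale, and the larger shift of Cd200r1 holds only with the floor. Cd200, Cd47 (brightest probe set, 1428187_at) and Cd300lf were lower relative to it by 3.09, 3.08 and 2.35. The other Cd47 probe sets, of which 1449507_a_at rose by 0.93, were not set against that mean. Siglec1 shifted by -0.31 with overlap, but by -1.75 without overlap with log2(value + 16). These are descriptions of ratios within arrays, and carry no test.

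**Figure D4:**
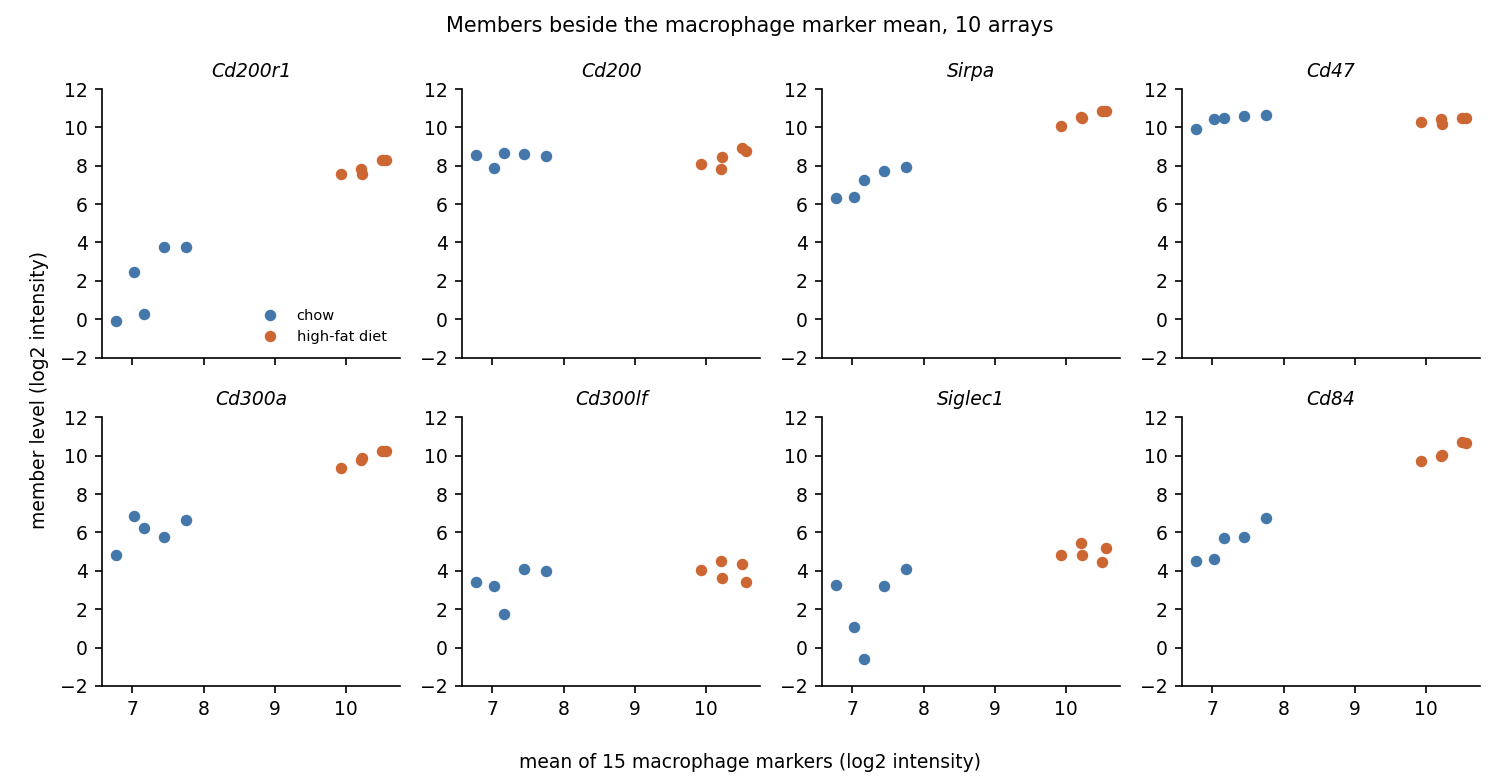
Level of the brightest probe set of each member (vertical axes, log2 intensity) against the mean of 15 macrophage markers (horizontal axes, log2 intensity) in the 10 arrays. Sirpa, Cd300a, Cd84 and Cd200r1 are high where the macrophage mean is 9.92 to 10.56, while Cd200 and Cd47 stay level across it.

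Other genes of the same circuits were read by the brightest probe set of each gene, with the median change of all 18193 genes at -0.04. Of all these genes 12.1% were higher and 11.9% lower. Of 18 other inhibitory receptors named on the array, 9 rose and 0 fell in limma (12 and 0 at an unadjusted p under 0.05), with a median of 1.38. Without chow arrays 1 and 2, 10 rose and 1 fell, Ceacam1 (-0.84, limma adjusted p = 0.00113). The largest rises were those of Milr1, an inhibitory receptor first known from mast cells (4.89, SE 0.74), the lectin Clec4a2 (4.44, SE 0.29) and Pirb, a receptor for MHC class I (4.40, SE 0.42). Milr1 came first only with the floor: with log2(value + 16) it rose by 2.41, less than Clec4a2 (3.86), Pirb (3.62) and Cd72 (2.48). Of 8 genes of the inhibitory signal, 3 rose: Dok2, the adaptor of CD200R1 (2.78, SE 0.38), the kinase Csk (1.25, SE 0.16) and Rasa1 (1.11, SE 0.25). The phosphatase genes Ptpn6, Ptpn11 and Inpp5d differed by 0.99, 0.00 and 0.66 and did not pass (adjusted p = 0.0582, 0.998 and 0.484). Without chow arrays 1 and 2, 7 of the 8 rose.

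Activating relatives rose beside the inhibitory receptors. Of 13 measured, 8 rose and 0 fell (the same at an unadjusted p under 0.05; median 2.58), among them Trem2, a lipid receptor (8.85, SE 0.26), Cd300lb (5.13, SE 0.50) and Cd200r4, a relative of Cd200r1 (5.03, SE 0.64). On the log2(value + 16) scale Trem2 rose by 6.01 and Cd200r4 by 3.36. Sirpb1a, the activating relative of Sirpa, rose by 4.49 (adjusted p = 2.81e-06). Relatives share sequence with Cd200r1, Sirpa and Cd300a, and whether the probes of one read transcripts of another was not tested. Of 8 adaptors and kinases of the activating signal 7 rose, with Tyrobp at 4.32 (SE 0.21), Btk at 4.08 (SE 0.65; 2.83 with log2(value + 16)) and Fcer1g at 3.78 (SE 0.23).

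In the SLAM family, 5 of 9 genes other than Cd84 rose and 0 fell (6 and 0 at an unadjusted p under 0.05; median 2.70). Ly9 rose by 5.24 (SE 0.67; 2.80 with log2(value + 16)), Cd48 by 4.91 (SE 0.26) and Slamf8 by 4.75 (SE 0.37; 3.15 with log2(value + 16)). Sh2d1a, the SAP adaptor of lymphocytes, differed by 1.21 and did not pass (adjusted p = 0.356). Of 8 partners and modifiers of CD47, 2 rose, and both encode glutaminyl cyclases: Qpct by 3.83 (SE 0.31) and Qpctl, whose product modifies the SIRP-alpha binding site of CD47, by 0.92 (SE 0.20). Thbs1, another ligand of CD47, differed by 0.42 (adjusted p = 0.734). Among 10 genes of uptake of dying cells, the receptors Axl (1.67, SE 0.19) and Stab2 (0.99, SE 0.25) rose and 0 fell (3 and 0 at an unadjusted p under 0.05). Of 14 enzymes that make or remove the sialic acid seen by Siglec-1, 1 rose and 1 fell (2 and 3 at an unadjusted p under 0.05 in limma). St3gal5 rose by 1.32 (SE 0.31). Gne, which starts its synthesis, fell by 0.79 (SE 0.25, limma adjusted p = 0.0485, and 0.0539 with log2(value + 16)). With 12.1% of all genes higher and 11.9% lower, the few calls in these last lists are not read as a result about the lists.

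Markers of other cell types that the tissue could hold were read the same way. Of 10 lymphocyte markers 3 rose, led by Gzma (2.34), Cd79b (1.58) and Cd2 (1.11), and the mean level ran from 2.91 to 3.53 on chow and from 3.43 to 4.05 on the high-fat diet. Of 8 neutrophil markers 3 rose, S100a8 (4.83), Csf3r (1.45) and Elane (1.40), with means of 2.51 to 3.18 and 3.61 to 4.22. Of 10 mast cell and basophil markers 3 rose, Mcpt4 (4.07), Cpa3 (3.07) and Cma1 (2.35), and 2 fell (Hdc at -2.21 and Gata2 at -1.34), with means of 3.01 to 4.09 and 3.54 to 5.21. Of 10 stromal and smooth muscle markers Col1a1 rose (2.26) and 4 fell, Cnn1 the most (-6.50). Of 7 mesothelial markers, 2 fell (Krt19 at -3.53 and Upk1b at -2.25). Of 4 erythroid and 8 neuronal or glial markers 0 passed in limma (0 and 1 at an unadjusted p under 0.05). Most of these are dim, and with log2(value + 16) the rises were smaller, such as 1.31 for Gzma, 0.83 for Csf3r and 1.46 for Mcpt4. Their part in the receptor changes was not tested.

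**Figure D5:**
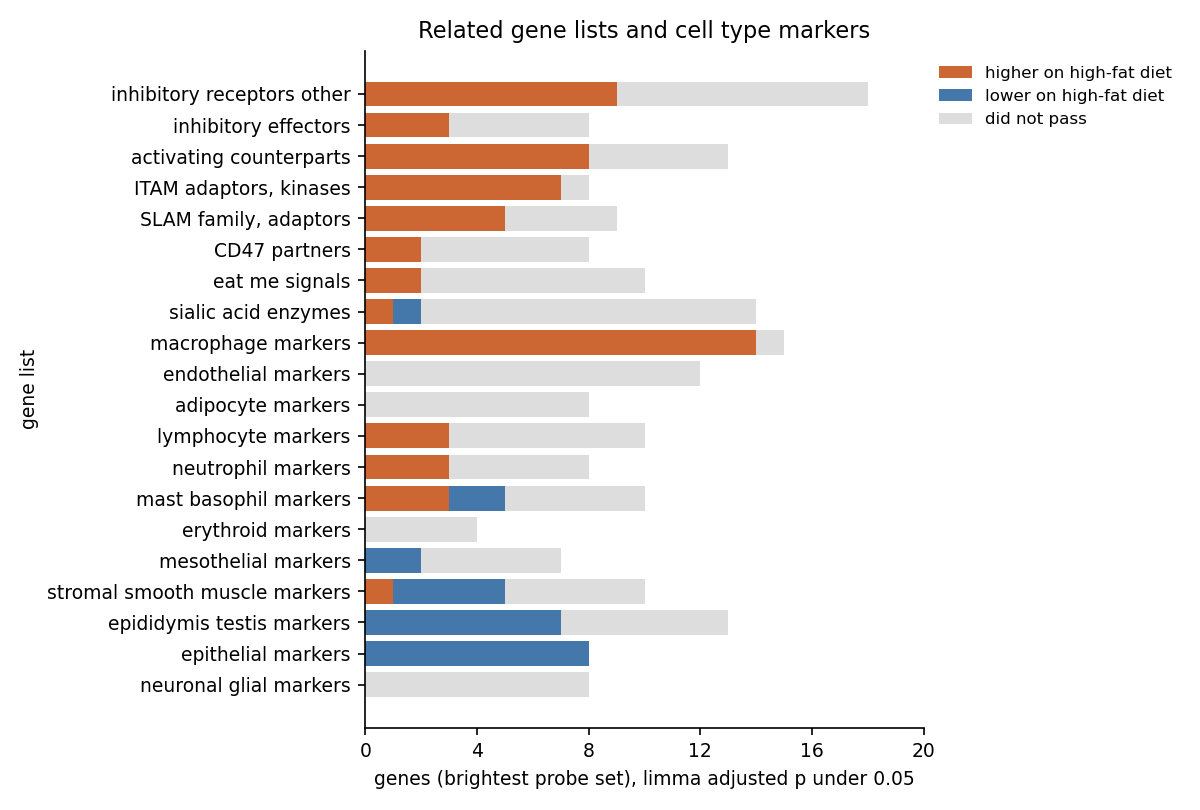
Number of genes (horizontal axis, brightest probe set, limma adjusted p under 0.05) that were higher, lower or did not pass on the high-fat diet in each gene list (vertical axis). Of the macrophage markers 14 of 15 were higher, and of the other inhibitory receptors 9 of 18.

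The genes most alike in pattern were sought by the root mean square difference between centred log2 profiles over the 10 arrays, among named genes above the median brightness. Closest to Cd84 were Itgb2, the leukocyte integrin beta chain (0.196), and C3ar1, a complement receptor (0.198). For Sirpa they were Naip2 (0.169), a sensor of bacterial proteins, and Mpeg1 (0.186), a macrophage pore protein that is also in the marker list used above. Those of Cd300a were Dcstamp, a fusion protein of macrophages and osteoclasts (0.326), and the hexokinase Hk3 (0.343). Those of Cd200r1 were Lipf, which encodes a lipase (0.801), and the macrophage elastase Mmp12 (0.818). The difference grows with the spread of the member itself (SD on chow 1.86 for Cd200r1 and 0.29 for Cd47). It therefore ranks genes for 1 member and is not compared between members. Cd47 lay closest to Gtdc1 (0.0877) and Dkc1 (0.0997), and Cd200 to Wsb1 (0.205) and Smndc1 (0.216), and none of these 4 passed. Cd300lf had Mfsd13b (0.376) and Flacc1 (0.427), and Siglec1 had Golga7b (0.696) and Poln (0.735), and of these 4 Poln alone passed (adjusted p = 0.0249).

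The 12 calls did not change in number without chow arrays 1 and 2, the arrays with the highest epithelial means (10.15 and 10.46). In that fit 12 of 19 probe sets were higher and 0 lower, with Cd84 at 4.16, Cd200r1 at 5.32 and Sirpa at 2.92. The epididymis and testis mean, however, was highest in chow arrays 2 and 3 (12.01 and 10.75) and was 8.63 in array 1. Chow array 3 was therefore kept in that fit. With the epididymis and testis mean as a covariate, which does not overlap between the diets, 1 of 19 passed, Cd300a 1435903_at (4.49, adjusted p = 0.0314), and 279 of 45037 probe sets in all; Cd84, Cd200r1 and Sirpa then differed by 3.35, 4.41 and 2.22.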

How the data were processed

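Per the labels' protocols, biotin-labelled cRNA from the total RNA of each mouse was hybridised to 1 array. The authors deposited 1 linear intensity per probe set and array. How probes were summarised and scaled was not stated in the labels used here, and no detection calls were used. Array medians ran from 17.9 to 27.4.

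Intensities were raised to the 5th percentile (0.658), log2 transformed and quantile normalized, and 64 control probe sets were then dropped. Of 45037 tested, 34945 had 1 symbol, 932 several and 9160 none listed here. limma 3.58.1 (R 4.3.3; lmFit, eBayes with trend) was fitted over all of them with Benjamini-Hochberg adjustment; genes in lists were read from the brightest probe set in that fit. The 2 receptor minus ligand ratios used exact permutation tests. On data simulated for this comparison over 45037 probe sets, 32% of 100 changes of 1 in log2 and 80% of 100 changes of 2 were recovered, with 2 false calls among 114. The changed probe sets were drawn only from those above the median brightness, and were far fewer than the 8057 called in the data. These shares therefore do not carry over to dimmer members, such as Cd300lf and Siglec1.

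Named list genes were up to 3 past the threshold with the largest changes, filled to 2 by smallest p, and 2 genes most alike per member. Others in the text (Ptpn6, Ptpn11, Inpp5d, Sirpb1a, Cd300ld, Cd300c2, Sh2d1a, Thbs1, Hdc, Gata2, Cd72, Ceacam1) were named after their values were seen. The members, lists, tests and alternatives were chosen with earlier results of these data known. Alternatives covered scaling, floor, log scale, variance prior, array weights, dim filter, probe set choice, replicate block, left-out arrays and an epididymis covariate. The number of arrays limits the precision.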

Additional observations from a re-analysis of the deposited data

Results flagged for a closer look

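Of 42 groups of 5 values examined (19 probe sets and 2 receptor to ligand ratios, in each diet), 2 held a value far from the other 4, close to the 1 in 20 that chance flags. Both were chow array 2. Its Cd200 level was 7.90, against 8.51 to 8.69 in the other chow arrays. Its level of Cd47 1459908_at was -0.60, at the floor, against 2.99 to 3.49.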

How the results depend on the processing

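The brightest probe sets of Cd200r1, Sirpa, Cd300a and Cd84 kept their direction and passed under all 21 alternatives other than the covariate, and Siglec1 under 14 of 20. With the epididymis and testis covariate 279 probe sets passed in all, and 1 member probe set (1 gene) did. Cd200r1 (4.41), Sirpa (2.22) and Cd84 (3.35) then missed the threshold, and Siglec1 (-1.25), Cd300lf (-0.58) and Cd47 1419554_at (-0.079), 1430997_at (-0.51) and 1459908_at (-1.60) changed sign; the cause was not tested. The sign of Cd200 turned as deposited (0.22) and median-centred (0.36). So did that of Cd47 1428187_at (0.33 and 0.46, and 0.66 over all its probe sets). Over all features 12723 probe sets passed without chow arrays 1 and 2, and 4717 and 3868 genes by brightest or mean probe set, where fewer features were tested. Of the calls over all probe sets 55.3% were higher, 66.3% as deposited and 76.3% median-centred, with median changes of 0.013, 0.044 and 0.18.

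Leaving out each array in turn gave -0.18 to 0.10 for Cd200, -0.15 to 0.029 for Cd47 1428187_at, and 2.04 to 3.22 for Siglec1 (adjusted p 0.0139 to 0.0768). Between 11 and 12 member probe sets and 4 and 5 member genes passed.

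Same-numbered arrays did not deviate together (r from -0.012 to 0.011), and 0 of 5 chow arrays matched their own number best. With the replicate number as a block 12 member probe sets and 6085 probe sets in all passed. In the paired permutation of the ratios (5.92 and 3.46), p = 0.0625 was the smallest that 5 pairs allow. The member counts were not made for the fits over genes or with dim probe sets left out, which do not hold all 19.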
